A study of Mus musculus with 18 samples.

Results

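Protocadherins, the cell adhesion proteins encoded by the genes whose symbols begin with Pcdh, were followed in polyadenylated RNA of sEVs (small extracellular vesicles, shed by cells with a membrane of their own) and of the primary mouse brain cultures that shed them. The symbol picked out 69 of the 54307 genes of the deposited table: 14 of the alpha cluster, 22 of the beta cluster, 21 of the gamma cluster and 12 genes outside the clusters. There were 6 groups of 3 libraries each, namely neuron sEVs and neurons, astrocyte sEVs and astrocytes, and microglia sEVs and microglia. The cultures are labelled only as primary cultures from brain, with no strain, age, genotype or treatment. The study set sEVs against their source cells to see which messenger RNAs each cell type packages. The labels do not say whether replicates are separate cultures, so p-values measure only the spread between these libraries.

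Clustered protocadherins are made from 3 gene arrays that lie next to each other. In the alpha and gamma arrays each gene supplies its own first exon, with its own promoter, and is spliced to constant exons shared by the whole array, whereas beta genes are single coding exons. The factor CTCF and the cohesin complex bring a distant enhancer to a few promoters in each neuron, and the resulting mixture of isoforms labels the cell surface, so that branches of the same neuron recognize and avoid each other. The C-type isoforms at the end of the alpha and gamma arrays are used more steadily than the others. Non-clustered protocadherins, most of them of the delta group, are separate genes scattered over several chromosomes that guide axon growth, synapse formation and cell sorting.

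This layout sets how far a value for a single isoform can be read. In GENCODE vM21 transcripts, the longest coding transcript of every alpha gene ended in 2860 to 2866 bases shared with another alpha gene, and that of every gamma gene in 2116 to 2130 bases shared with another gamma gene. The share of a transcript's 31-base words found elsewhere in its cluster had a median of 62.7% in alpha genes, 47.0% in gamma genes and 11.8% in beta genes, and was at most 0.219% in non-clustered genes. Reads from the constant exons must be split between isoforms, and cDNA was primed at the poly(A) end, so values of single alpha and gamma isoforms are less certain than cluster sums, beta genes or non-clustered genes.

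The normalized counts of a library summed to between 36947428 and 69276566. Between 7840 and 15951 genes reached a value of 10 in sEV libraries, fewest in microglia sEVs, and between 13494 and 18131 in cell libraries. Cultures were checked against marker lists. All 12 neuron markers were above 0 in neuron sEVs and in neurons, all 10 astrocyte markers in astrocytes and 9 in astrocyte sEVs, where Gjb6 was listed at 0, and all 10 microglia markers in microglia and 9 in microglia sEVs, where Tmem119 was listed at 0. Markers of other cells were present too. The summed level of 10 astrocyte markers was 114452 to 162309 in neuron sEVs and 136854 to 150199 in neurons, with no marker at 0 in all 3 libraries of either group, against 489952 to 765333 in astrocyte sEVs and 948269 to 1172484 in astrocytes. The 8 oligodendrocyte lineage markers summed to 80020.1 to 168174 in astrocyte sEVs, 233033 to 415491 in astrocytes, 17559 to 25112 in neuron sEVs and 32489 to 95424 in neurons, with none at 0 in all 3 libraries of a group. The 12 neuron markers summed to 9804 to 12898 in astrocyte sEVs and 14609 to 19233 in astrocytes. The 8 fibroblast and meningeal markers summed to at most 930 in any sEV library, 4982 in neurons, 13411 in astrocytes and 20434 in microglia, and the 6 endothelial markers to at most 2117 in any library. The part of these cells in the protocadherin levels was not tested, and in bulk RNA fewer cells of a type and less RNA per cell cannot be told apart.

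The alpha cluster was mostly a feature of the neuron cultures, while the gamma cluster and the non-clustered genes were abundant in astrocytes as well. The summed normalized count of the alpha genes was 2869, 1949 and 1472 in neuron sEVs, against 37064, 45509.9 and 43450.5 in neurons. In astrocyte sEVs the alpha sum was 78.6, 945 and 254, against 2329, 1839 and 2120.1 in astrocytes. Every sEV library of these 2 cell types thus lay below every library of its source cells. The beta sum was 2098, 1664 and 1539 in neuron sEVs, against 19426, 21314 and 21761 in neurons, and 1131, 2044 and 1174 in astrocyte sEVs, against 8166, 9285 and 8202 in astrocytes. The gamma sum was 3171, 3008 and 3253 in neuron sEVs, against 20142, 15103 and 19988 in neurons. It was 1677, 4613 and 2784 in astrocyte sEVs, against 15182, 12302 and 23269 in astrocytes, a level that overlaps the neuronal one.

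Non-clustered genes were the larger part of the sEV signal although they are the fewest. They summed to 15774, 17465 and 17234 in neuron sEVs, against 57884, 58542 and 69203 in neurons. They summed to 14181, 29998 and 12049.6 in astrocyte sEVs, against 31814, 26448 and 30564 in astrocytes, where the second sEV library reached the level of the cells. Microglia carried little of any class, with a sum over all 69 genes of 0, 1415 and 1506 in microglia sEVs, against 1448, 2244 and 2472 in microglia. The first microglia sEV library listed every protocadherin gene at 0.

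**Figure D1:**
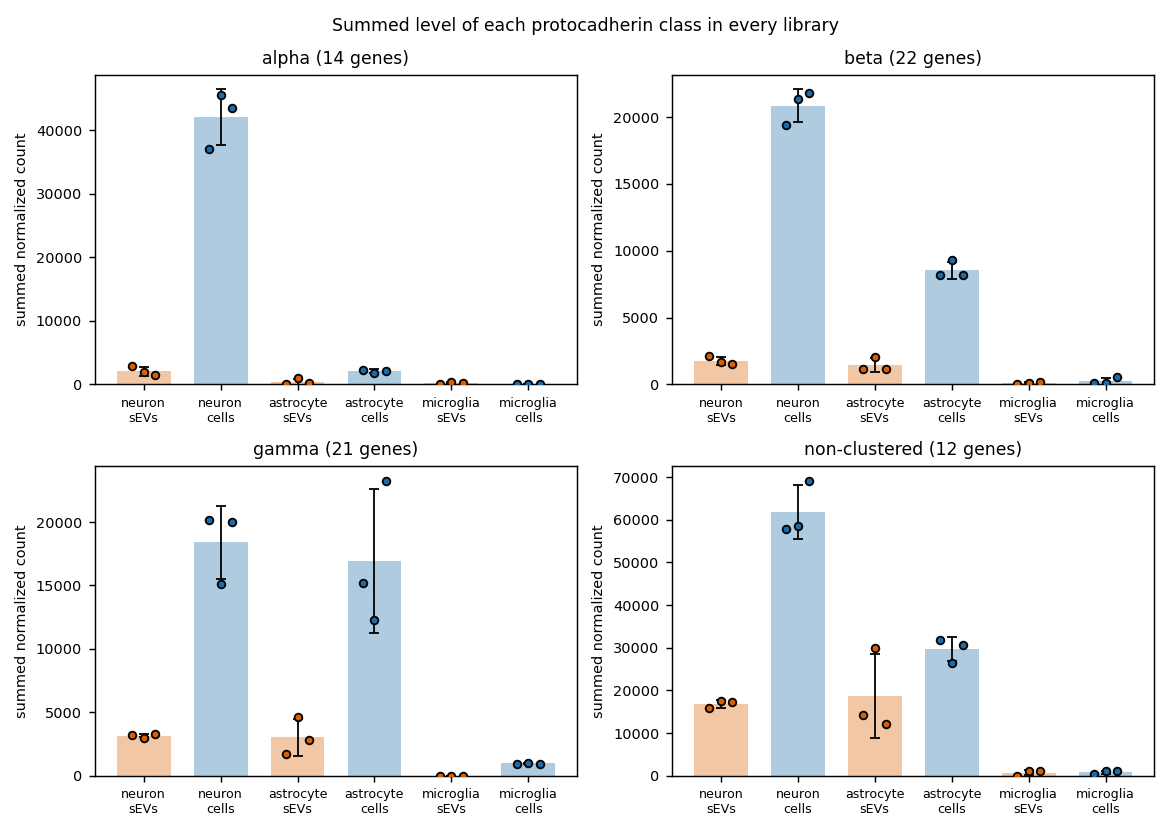
Summed normalized count of the alpha, beta, gamma and non-clustered protocadherin genes (y axis, linear, own scale in each panel) in the 6 groups; points are libraries, bars the mean and error bars the SD of 3 libraries. Neuron sEVs lie below neurons in every panel, and the alpha panel is dominated by neurons, with a mean of 42008.

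Set as ratios of group means, the level in sEVs was 4.99% of that in cells for the alpha cluster in neurons, 8.48% for beta, 17.1% for gamma and 27.2% for the non-clustered genes. In astrocytes it was 20.3% for alpha, 17.0% for beta, 17.9% for gamma and 63.3% for the non-clustered genes. The astrocyte values rest on sEV libraries that differ widely among themselves. Taken gene by gene, over genes whose cell libraries averaged 100 or more, the median level in neuron sEVs was 3.71% of that in neurons for 14 alpha, 6.60% for 21 beta, 4.38% for 21 gamma and 23.3% for 11 non-clustered genes, against 74.3% over 13042 genes. In astrocytes it was 11.4% for 42 clustered and 46.2% for 10 non-clustered genes, against 87.0% over 11720 genes. Scaling every library to the same total gave lower ratios in the same order in neurons, 4.04%, 6.87%, 13.8% and 22.0%. The differences in ratio between the classes were not tested.

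Non-clustered genes made up 66.0 to 73.3% of the summed protocadherin count in neuron sEVs, against 41.7 to 44.8% in neurons. In astrocyte sEVs they made up 74.1 to 83.1%, against 47.6 to 55.3% in astrocytes. The alpha cluster made up 6.26 to 12% of the sum in neuron sEVs, against 27.6 to 32.4% in neurons. Fewer isoforms were seen in sEVs as well: between 29 and 36 of the 57 clustered genes reached a value of 10 in a neuron sEV library, against 56 or 57 in a neuron library, and between 8 and 22 did so in an astrocyte sEV library, against 52 or 53 in an astrocyte library. For the 12 non-clustered genes the numbers were 10 or 11 in neuron sEVs, against 11 in neurons, and 7 or 8 in astrocyte sEVs, against 11 in astrocytes. sEV libraries held fewer genes in all, and the part of that in these counts was not tested.

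**Figure D2:**
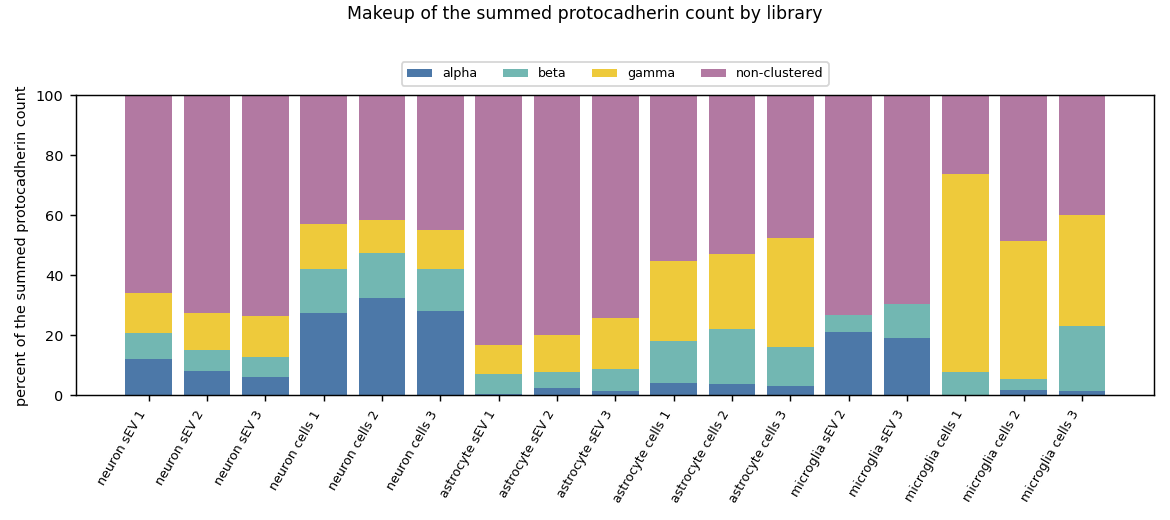
Share of each class in the summed protocadherin count (y axis, percent) for 17 libraries on the x axis, sEV libraries left of the cell libraries of each type; the first microglia sEV library, with a sum of 0, is left out. The non-clustered share is 66.0 to 73.3% in the 3 neuron sEV libraries and 41.7 to 44.8% in the 3 neuron libraries.

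In neuron sEVs nearly every clustered isoform was lower than in neurons. Of all 14 alpha genes, 14 had every sEV library below every neuron library, as did 20 of 22 beta genes, 20 of 21 gamma genes and 8 of 12 non-clustered genes, where 34.2% of all tested genes did. With limma on log2(value + 1) over all 18 libraries, 67 of the 69 genes were tested, since Pcdhb1 and Pcdh12 did not reach 10 in 3 libraries. At an adjusted p under 0.05 (Benjamini-Hochberg over 19612 genes), 12 of 14 alpha, 12 of 21 beta, 18 of 21 gamma and 1 of 11 non-clustered genes fell in neuron sEVs, and 18.9% of all tested genes were called lower. None rose, at an adjusted or an unadjusted p under 0.05, where 11.1% of all tested genes rose by the adjusted p. Differences are given as sEVs minus cells on the log2(value + 1) scale with their SE. The added 1 shrinks changes between low values, while sEV libraries at 0 can make a fall larger than the ratio of means. The median difference was -5.69 for alpha, -4.33 for beta, -6.57 for gamma and -2.22 for non-clustered genes, against -0.47 over all tested genes. The order of alpha and gamma depends on the measure. By ratios of means, the median level in neuron sEVs was 3.71% of that in neurons for alpha and 4.38% for gamma.

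The gap in calls between the classes depends on the estimate of spread. A fit of only the 6 neuron libraries called 14 of 14 alpha, 18 of 21 beta, 19 of 21 gamma and 8 of 11 non-clustered genes lower, with 33.0% of all genes tested there called lower and 21.9% higher, with the same log2 differences. Members at or near 0 in neuron sEVs passed the filter of that fit through the neurons, so its counts by class depend on that filter. Pcdha1 passed the filter of the 18-library fit only through the neurons as well. For Pcdh9 the SE of the neuron difference was 1.65 in the 18-library fit and 0.18 in the 6-library fit. In the 18-library fit the astrocyte and microglia sEV libraries, in which many of these genes are at 0 in some replicates and not in others, share their spread with the neuron comparison. A group listed at 0 in all 3 libraries adds no spread. The smallest p can thus mark genes at 0 and does not rank the strength of a fall.

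**Figure D3:**
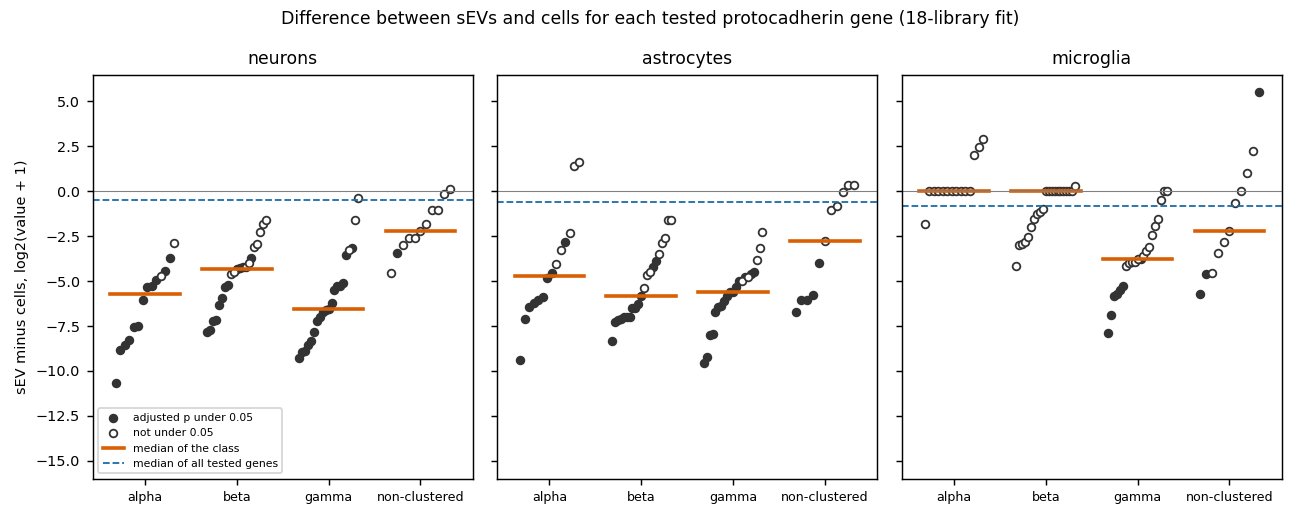
Difference between sEVs and cells for the 67 tested genes (y axis, log2(value + 1), fit of 18 libraries) by class, in neurons, astrocytes and microglia; filled points have an adjusted p under 0.05, orange lines are class medians and the dashed line is the median of all tested genes. In neurons the 3 clustered medians lie between -6.57 and -4.33 and the non-clustered median at -2.22; points at 0 in microglia are genes listed at 0 in all 6 microglial libraries.

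Among alpha isoforms, Pcdha12 was the highest over the 18 libraries, with 42.7, 156 and 575 in neuron sEVs, against 5806, 6199.8 and 6686 in neurons. Pcdha5 had 2.25, 45.7 and 38.1 in neuron sEVs, against 5321, 5904 and 5815 in neurons. Pcdha3 had 344, 281 and 10.5 in neuron sEVs, against 3739.5, 5102 and 3683 in neurons. All 3 were well below the cells in each sEV library, with log2 differences of -5.30 ± 1.20 at an adjusted p of 0.00334, -8.29 ± 2.06 at an adjusted p of 0.00638 and -5.31 ± 1.46 at an adjusted p of 0.0118. Pcdha1 had the smallest p of the alpha genes: it was listed at 0 in all 3 neuron sEV libraries, against 1724, 1166 and 2061 in neurons (adjusted p = 2.82e-07). Outside the neurons it reached 10 only in the second astrocyte library, at 32.2, so it passed the filter only through the neurons. A group at 0 also adds no spread, so its p does not rank its fall above those of other genes. Pcdha2 had 78.8, 0 and 0 in neuron sEVs, against 1288, 2034 and 2933 in neurons (adjusted p = 7.24e-05). Pcdha10 had 18, 84.3 and 0 in neuron sEVs, against 2849, 2370.5 and 1606 in neurons (adjusted p = 1.11e-04). All 14 alpha genes were above 0 in every neuron library, while each neuron sEV library listed some of them at 0.

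Beta genes carry little shared sequence, and most of those tested fell in neuron sEVs too. Pcdhb9 had 77, 144 and 0 in neuron sEVs, against 3092, 3675 and 2864 in neurons, a log2 difference of -7.15 ± 1.85 at an adjusted p of 0.00812. Pcdhb7 had 27.9, 258 and 0 in neuron sEVs, against 2697, 2957 and 3169 in neurons, a log2 difference of -7.23 ± 1.65 at an adjusted p of 0.00361. The third sEV library listed both at 0. Pcdhb17 had 37.1, 142 and 181 in neuron sEVs, against 1914, 2016 and 1670.4 in neurons, a log2 difference of -4.22 ± 1.51 at an adjusted p of 0.0478. Pcdhb20 had 30.2, 167 and 176 in neuron sEVs, against 1932, 2678 and 2560.3 in neurons. Its groups did not overlap either, but its log2 difference of -4.60 ± 2.26 at an adjusted p of 0.147 was not called.

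**Figure D4:**
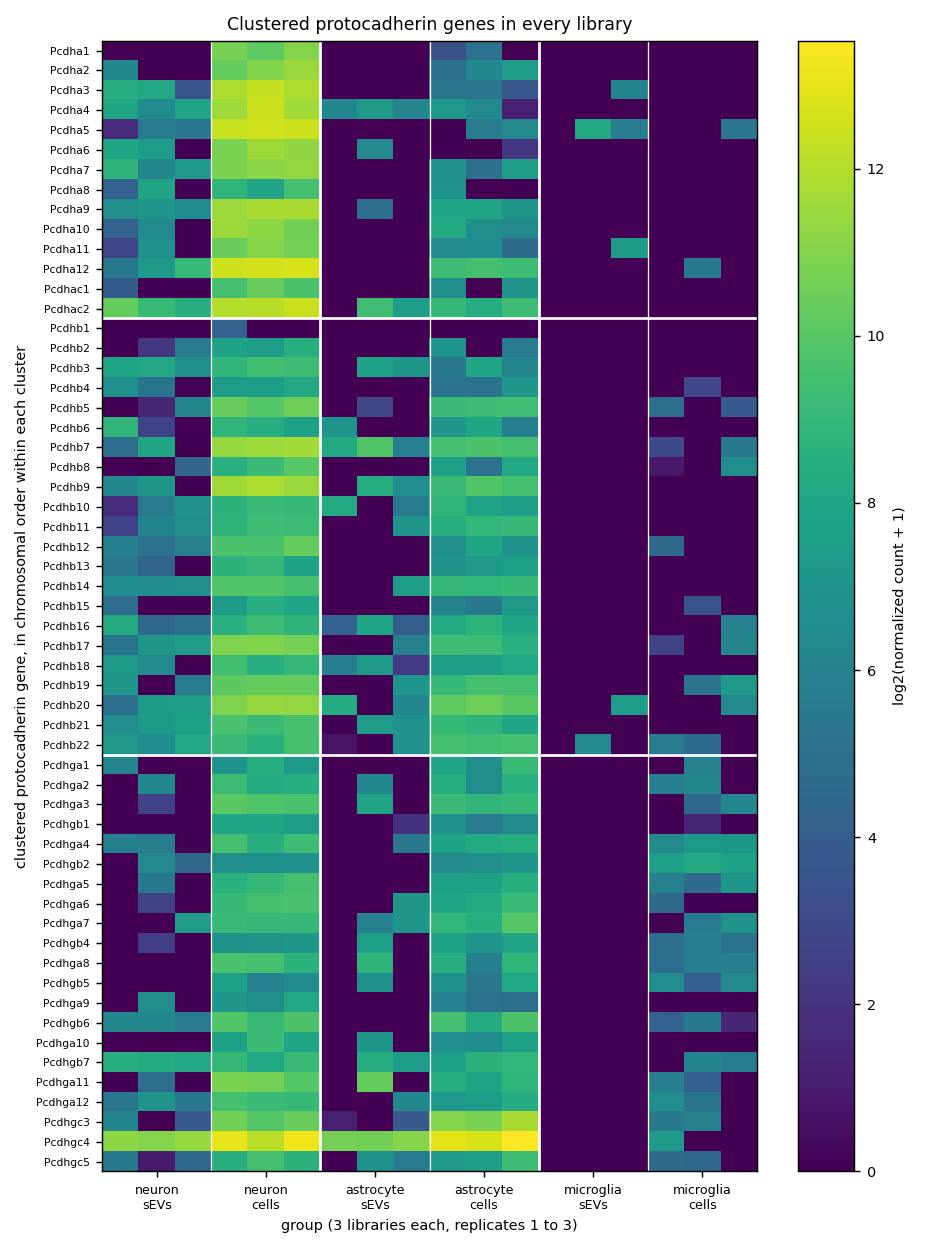
Level of the 57 clustered genes (rows, in chromosomal order within the alpha, beta and gamma arrays, separated by white lines) in the 18 libraries (columns, sEVs left of cells in each type), coloured by log2(normalized count + 1). All 14 alpha rows are bright in neurons, Pcdhgc4 is bright in sEVs and cells of neurons and astrocytes, and the gamma rows are at 0 in all 3 microglia sEV libraries.

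The C-type isoforms did not move alike. Pcdhgc4, which mice need for the survival of neurons, was the most abundant gamma gene in every library of neurons and astrocytes and of their sEVs. It had 2444, 2082 and 2641 in neuron sEVs, against 8293, 4560.1 and 9806 in neurons, and 1676, 1589 and 2136 in astrocyte sEVs, against 8067, 6748 and 11824 in astrocytes. Its groups did not overlap in either type. The log2 differences were -1.59 ± 1.33 at an adjusted p of 0.42 in neurons and -2.27 ± 1.33 at an adjusted p of 0.238 in astrocytes in the 18-library fit, and -1.59 ± 0.28 at an adjusted p of 0.00181 and -2.27 ± 0.26 at an adjusted p of 9.83e-04 in fits of the 6 libraries of each type. Pcdhgc4 made up 69.2 to 81.2% of the gamma sum in neuron sEVs, against 30.2 to 49.1% in neurons. In astrocyte sEVs it made up 34.4 to 99.9%, against 50.8 to 54.9% in astrocytes, and the groups overlapped. The other 20 gamma genes together had 727, 926 and 612 in neuron sEVs, against 11849, 10543 and 10182 in neurons, so that without Pcdhgc4 the gamma level in neuron sEVs was 6.95% of that in cells. Leaving out Pcdhgc4 was chosen after its values were seen. Pcdhgc4 also has a short coding transcript of 2272 bases of which 93.3% of the 31-base words occur in other gamma genes, and how many reads of the shared exons were credited to it was not tested.

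Pcdhgc3, which takes part in the branching of cortical dendrites, had 67.4, 0 and 13.5 in neuron sEVs, against 1605, 952 and 1348 in neurons, and 1.27, 0 and 12.9 in astrocyte sEVs, against 2064, 1822 and 3540.5 in astrocytes. It fell in both, by a log2 difference of -7.00 ± 1.57 at an adjusted p of 0.00313 in neurons and -9.55 ± 1.57 at an adjusted p of 3.62e-04 in astrocytes. Pcdhac2, needed for the even spacing of serotonergic axons, had 1303, 554 and 359.7 in neuron sEVs, against 4143, 4369.8 and 5648 in neurons, the highest share of its cell level but 1 among the alpha genes, 15.7%. At -2.87 ± 1.60 at an adjusted p of 0.207 its difference was not called in the 18-library fit, and in the fit of the 6 neuron libraries it was -2.87 ± 0.43 at an adjusted p of 7.52e-04. Pcdhac1 had 14.6, 0 and 0 in neuron sEVs, against 756, 1316 and 819.5 in neurons, and fell (adjusted p = 3.42e-04). Pcdhgc5, which binds the GABA-A receptor, had 43.8, 1 and 22.1 in neuron sEVs, against 365, 746 and 418 in neurons, and fell too (adjusted p = 0.0263).

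The remaining gamma isoforms were low in sEVs. Pcdhgb1 had the smallest p of all protocadherins in neurons: it was listed at 0 in the 3 neuron sEV libraries, against 249, 243 and 183 in neurons (adjusted p = 2.03e-07). Since a group at 0 adds no spread, this p does not rank its fall above those of other genes. Pcdhga11 had 0, 28.1 and 0 in neuron sEVs, against 1777, 1646 and 1005 in neurons (adjusted p = 0.00715). Pcdhga3 had 0, 5.26 and 0 in neuron sEVs, against 1082, 895 and 812 in neurons (adjusted p = 0.00146). In these the sEV libraries were at or near 0. Pcdhgb7, named after its values were seen, was the exception, with 368, 316 and 289.7 in neuron sEVs, against 517, 268 and 551 in neurons, groups that overlap.

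Non-clustered protocadherins ranged from a few percent of the cell level to no detected difference. Pcdh9, a delta protocadherin and the most abundant family member here, had 3978, 5494 and 5124 in neuron sEVs, against 25394, 29038 and 32234 in neurons, and the groups lie far apart. Its log2 difference of -2.58 ± 1.65 at an adjusted p of 0.275 was not called in the 18-library fit, while the fit of the 6 neuron libraries gave -2.58 ± 0.18 at an adjusted p of 1.62e-05. Pcdh11x, its X-linked relative, had 544, 336 and 403 in neuron sEVs, against 9060.3, 8612 and 11827 in neurons, or 4.35% of the cell level. This was the lowest ratio among non-clustered genes, with a log2 difference of -4.54 ± 1.68 at an adjusted p of 0.0541 in the 18-library fit and -4.54 ± 0.24 at an adjusted p of 4.61e-06 in the 6-library fit. Pcdh7 had 2548, 3347 and 3141 in neuron sEVs, against 6198, 6494 and 5676 in neurons, 49.2% of the cell level. It was not called in the 18-library fit, and the 6-library fit gave -1.03 ± 0.17 at an adjusted p of 0.00115.

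Pcdh10 and Pcdh17 stood at the other end. Pcdh10, which recruits the actin-regulating WAVE complex and takes part in activity-dependent synapse removal, had 1578, 1837 and 2419 in neuron sEVs, against 1689, 1247 and 2466 in neurons. Pcdh17, which organizes presynaptic terminals and axon extension along other axons, had 5680.1, 3579.6 and 3868 in neuron sEVs, against 6035, 3685 and 4624 in neurons. Both overlapped their cells, with log2 differences of 0.14 ± 0.60 at an adjusted p of 0.911 and -0.13 ± 1.61 at an adjusted p of 0.988, and in the 6-library fit of 0.14 ± 0.29 at an adjusted p of 0.69 and -0.13 ± 0.25 at an adjusted p of 0.678. With the 6-library SE of 0.29 and 0.25, small differences in either direction would not be seen. Pcdh18 also overlapped, with 139.8, 252 and 593 in neuron sEVs, against 529.8, 704 and 492 in neurons. By the 6-library fit these were the 3 non-clustered genes of 11 tested that were not called.

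The promoters of Pcdh10 and Pcdh17 are shown because these genes had levels near those of the cells in neuron sEVs and were low in microglia. The sequences are the 250 bases before the transcript start from RefSeq on GRCm38.p6, at chr3:45378148-45378397 and chr14:84443313-84443562, both on the plus strand, 5′ to 3′, with CG dinucleotides in capitals.
Pcdh10: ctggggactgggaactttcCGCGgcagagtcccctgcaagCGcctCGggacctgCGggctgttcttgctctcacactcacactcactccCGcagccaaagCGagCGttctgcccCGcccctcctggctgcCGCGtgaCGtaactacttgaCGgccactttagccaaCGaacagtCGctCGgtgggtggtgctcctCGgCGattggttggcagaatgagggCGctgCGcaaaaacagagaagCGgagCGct
Pcdh17: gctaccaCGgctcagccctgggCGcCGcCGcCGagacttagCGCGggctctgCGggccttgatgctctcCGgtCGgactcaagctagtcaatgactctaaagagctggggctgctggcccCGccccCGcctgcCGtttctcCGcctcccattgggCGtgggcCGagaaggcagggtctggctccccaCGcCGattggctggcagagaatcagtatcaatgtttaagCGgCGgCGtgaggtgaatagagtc
They hold 22 and 21 CG dinucleotides, where the 32851 promoters of the same length in that table have a median of 6 and quartiles of 2 and 16. The letters TATAAA occur in neither on either strand, and in 12.4% of all these promoters on at least 1 strand. Among other non-clustered genes in the table, Pcdh9 has 18 CG dinucleotides, Pcdh18 has 23, Pcdh19 has 16, Pcdh8 has 11, Pcdh7 has 7, Pcdh15 has 6 and Pcdh20 has 3.

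Pcdh19, the X-linked gene mutated in a human epilepsy, had 343, 1009 and 711 in neuron sEVs, against 3169.5, 2988 and 5545 in neurons. Pcdh15, a tip-link protein of hair cells that oligodendrocyte precursors also express, had 194, 730.3 and 426 in neuron sEVs, against 2234, 1152 and 2419 in neurons. Pcdh20 had 290.0, 418 and 198 in neuron sEVs, against 1786, 3201 and 2215 in neurons. In all 3 every sEV library lay below every neuron library. Their 18-library differences of -2.58, -2.22 and -3.01 had adjusted p of 0.129, 0.42 and 0.261, against 0.00113, 0.00624 and 2.16e-04 in the 6-library fit. Pcdh1, at 1.93 to 50.2 in neuron sEVs, against 166 to 250.3 in neurons, was the non-clustered gene called lower in the 18-library fit (log2 difference -3.43 ± 1.02 at an adjusted p of 0.0192). Pcdh8, which synaptic activity induces, was at 348 to 429 in neuron sEVs, against 1257 to 1564 in neurons. Pcdh12, an endothelial protocadherin, was listed at 0 in 16 of the 18 libraries.

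**Figure D5:**
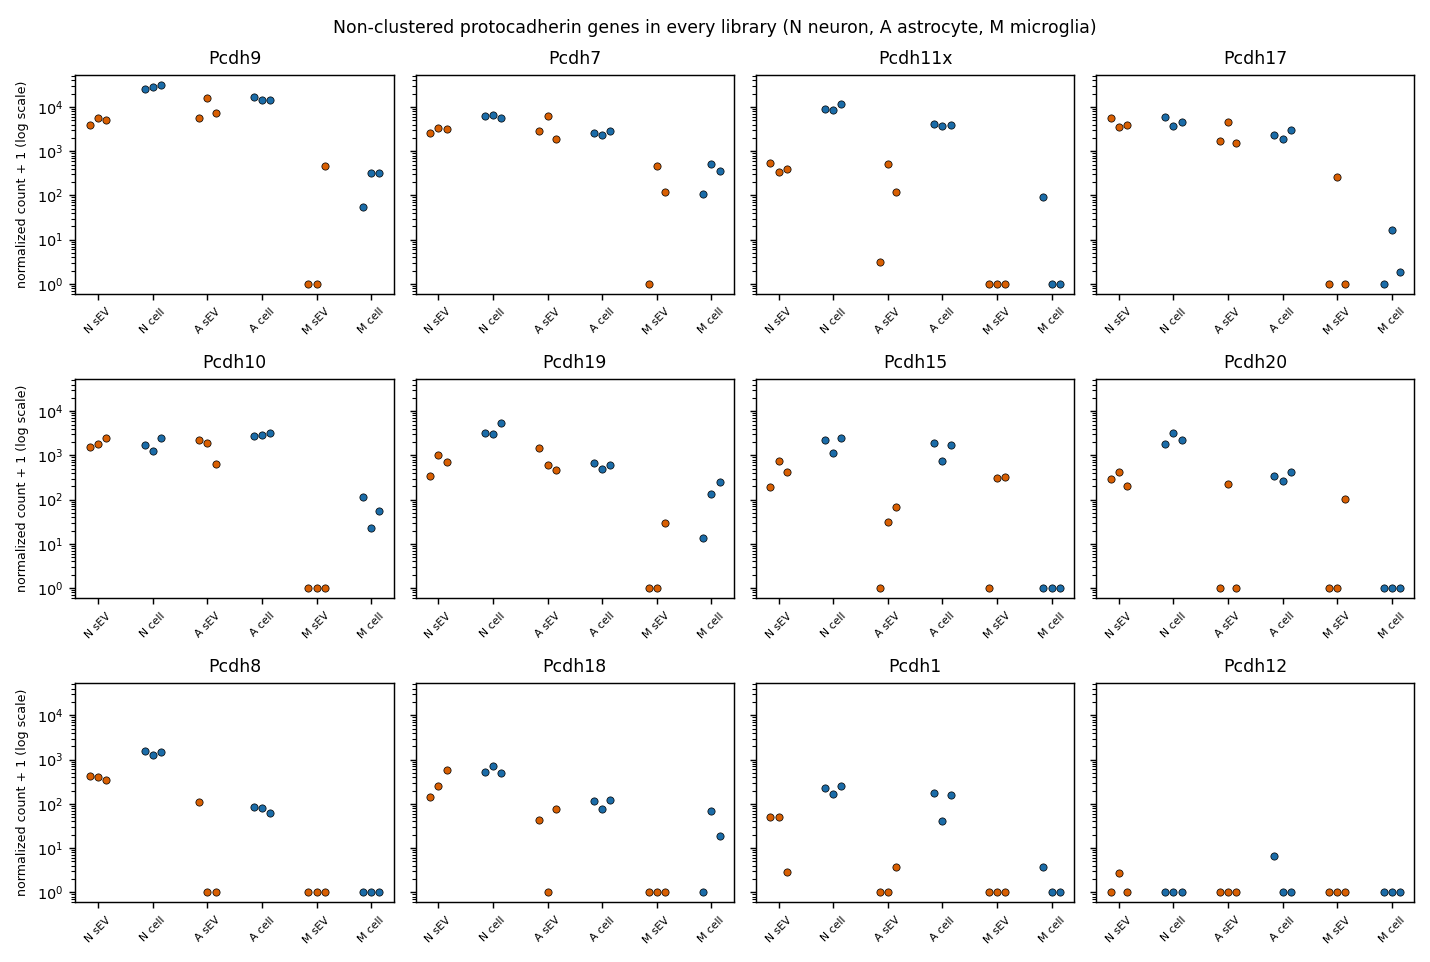
Normalized count plus 1 (y axis, log scale) of the 12 non-clustered genes in the 18 libraries, in neurons (N), astrocytes (A) and microglia (M), sEVs (orange) left of cells (blue); points at 1 are values of 0. Pcdh10 and Pcdh17 overlap between neuron sEVs and neurons, and Pcdh11x does not, at 336 to 544 against 8612 to 11827.

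In astrocytes the clustered isoforms fell as well, and most of the non-clustered genes with high levels did not. At an adjusted p under 0.05, 9 of 14 alpha, 13 of 21 beta, 16 of 21 gamma and 5 of 11 non-clustered genes fell in astrocyte sEVs and none rose, also at an unadjusted p under 0.05, where 18.6% of all tested genes were called lower and 8.0% higher. Median log2 differences were -4.69, -5.82 and -5.60 for alpha, beta and gamma and -2.79 for non-clustered genes, against -0.60 over all tested genes. A fit of the 6 astrocyte libraries called fewer, 28 where the 18-library fit called 43, with 19.2% of all genes tested there called lower. Genes at or near 0 in astrocyte sEVs passed the filter of that fit through the astrocytes, so its counts are not given by class. Every sEV library lay below every astrocyte library in 37 of 57 clustered and 5 of 12 non-clustered genes, where 27.2% of all tested genes did so.

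The astrocyte sEV libraries differed in which isoforms they held. Pcdha12 was listed at 0 in all 3, against 622, 745 and 641 in astrocytes (adjusted p = 3.76e-05). Pcdhgb6 was listed at 0 in all 3, against 750.3, 317 and 852 in astrocytes (adjusted p = 1.32e-06), and so was Pcdha7, against 113, 30.5 and 187 (adjusted p = 1.07e-05). Pcdhgb1 had 0, 0 and 3.02 in astrocyte sEVs, against 120.5, 45 and 85.2 in astrocytes (adjusted p = 1.03e-05). Pcdhac2 had 0, 672 and 183 in astrocyte sEVs, against 509.9, 334 and 647 in astrocytes, with overlap. Pcdhga11 had 0, 1272 and 0 in astrocyte sEVs, against 344, 242 and 476 in astrocytes. Here a single sEV library stood above all cells and the other two were at 0, so the group mean of the sEVs rests on 1 library.

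Among non-clustered genes, Pcdh9 had 5631, 15862 and 7240.4 in astrocyte sEVs, against 16780.1, 14054 and 14512 in astrocytes. Pcdh7 had 2926, 6256 and 1915 in astrocyte sEVs, against 2536, 2288 and 2876 in astrocytes. Pcdh17 had 1721, 4555 and 1511 in astrocyte sEVs, against 2330.2, 1931 and 3004 in astrocytes. These overlapped their cells and were not called, with log2 differences of -0.80, 0.36 and -0.06 and 6-library adjusted p of 0.157, 0.547 and 0.925. Pcdh10 had 2260.0, 1945 and 653 in astrocyte sEVs, against 2803, 2845 and 3221 in astrocytes (log2 difference -1.05 ± 0.60 at an adjusted p of 0.225 in the 18-library fit and -1.05 ± 0.47 at an adjusted p of 0.139 in the 6-library fit). It was not called, but every sEV library lay below every astrocyte library, at 54.8% of the cell level. Pcdh19 had 1490.2, 603 and 464 in astrocyte sEVs, against 685, 493 and 594 in astrocytes (log2 difference 0.35 ± 1.21 at an adjusted p of 0.911). Pcdh11x had 2.19, 522 and 120.3 in astrocyte sEVs, against 4099, 3620.2 and 3902 in astrocytes, and fell by 6.04 ± 1.68 at an adjusted p of 0.015 on the log2 scale. Pcdh15 had 0, 30.1 and 68.6 in astrocyte sEVs, against 1862, 751 and 1711 in astrocytes (adjusted p = 0.0148). None of the 8 oligodendrocyte lineage markers was called in astrocyte sEVs at an adjusted p under 0.05, with a median log2 difference of -1.29.

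Microglia expressed few protocadherins, and fewer of them reached a value of 10 in their sEVs. Between 22 and 26 of the 69 genes reached a value of 10 in a microglia library, against 0, 5 and 9 in the 3 microglia sEV libraries. All 21 gamma genes were listed at 0 in the 3 microglia sEV libraries, against a summed level of 957, 1037 and 909 in microglia. The alpha sum did not follow this, with 0, 298 and 288 in microglia sEVs, against 0, 42.6 and 38 in microglia. These groups overlap at 0, and no alpha gene was called. At an adjusted p under 0.05, 7 of 21 gamma and 2 of 11 non-clustered genes fell, no alpha or beta gene did, also at an unadjusted p under 0.05, and 1 non-clustered gene rose, where 21.2% of all tested genes were called lower and 5.08% higher. However, 12 of 14 alpha and 11 of 22 beta genes were at 0 in all 3 microglia libraries and could not fall. The median over all tested genes was -0.79, and quantile normalization, which gave it as 0.26, called 4 protocadherins of 67 higher, 3 of them alpha genes, and 5 lower, where it called 15.1% of all tested genes higher and 12.2% lower. Under that setting Pcdh10, listed at 0 in all 3 microglia sEV libraries, went from -5.71 to -3.29. Values of 0 can shift with it, and 11 of 14 alpha genes were at 0 in all microglia sEV libraries. The part of this in the alpha calls was not tested. Every microglia sEV library lay below every microglia library in 7 gamma genes and 1 non-clustered gene, where 24.9% of all tested genes did so. Pcdhgb2, the highest gamma gene in each microglia library, had 197, 292 and 214 in microglia (adjusted p = 8.43e-05). Pcdhga4 had 81.8, 146 and 139.6 in microglia (adjusted p = 0.00291), and Pcdhga5 had 57.5, 23.2 and 136 (adjusted p = 0.00141). These levels are low, and the values of single gamma isoforms rest on shared exons as above.

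Pcdh10 was listed at 0 in all 3 microglia sEV libraries, against 114, 21.7 and 53.8 in microglia (adjusted p = 4.83e-06). Pcdh19 had 0, 0 and 28.6 in microglia sEVs, against 12.4, 133 and 249 in microglia (adjusted p = 0.0106). The groups overlap, and the call was lost in the 6-library fit (adjusted p = 0.111) and without the third microglia library (adjusted p = 0.0575), and quantile normalization gave -2.29 at an adjusted p of 0.153. Pcdh15 was the gene called higher, with 0, 311 and 327 in microglia sEVs, and was listed at 0 in all 3 microglia libraries (adjusted p = 0.0387). The groups overlap at 0. The adjusted p was 0.139 without the second and 0.136 without the third microglia sEV library. Oligodendrocyte lineage markers summed to 29.8 to 1041 in microglia sEVs, against 343 to 538 in microglia, with 4 of 8 above 0 in the sEVs and Cspg4, Mog, Olig2 and Sox10 at 0 in all 3. Their part in the Pcdh15 value was not tested.

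The effect of sEVs was compared between cell types by the difference of differences. For neurons minus astrocytes, 3 protocadherins were called, where 5.09% of all tested genes were, so the share of members called was not above that of all genes. Pcdha1 fell more in neurons (difference of -7.85 ± 1.24 at an adjusted p of 0.00121), from a level near 0 in astrocytes, where it had 9.22, 32.2 and 0. Pcdha4 differed by -6.07 ± 1.61 at an adjusted p of 0.0427: it had 249.5, 90.1 and 243 in neuron sEVs, against 2998, 5549 and 3204 in neurons, and 78.6, 162 and 71 in astrocyte sEVs, against 148, 84.3 and 1.32 in astrocytes. Pcdhgb6 fell less in neurons (difference of 5.67 ± 1.17 at an adjusted p of 0.00903), where it had 78.6, 77.3 and 47.6 in neuron sEVs, against 943, 581 and 854 in neurons. The sEV levels of Pcdha4 in astrocytes were close to those in neurons although the cell levels were not.

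For neurons minus microglia, 17 of 67 genes were called, where 20.7% of all tested genes were, and for astrocytes minus microglia 15 of 67, where 13.3% were. Many of these are genes at or near 0 in microglia and their sEVs, so that the difference repeats the effect in the other type, as for Pcdhgb1 (-7.35 ± 0.88 at an adjusted p of 2.58e-05 for neurons minus microglia and -5.16 ± 0.88 at an adjusted p of 9.08e-04 for astrocytes minus microglia). Pcdh10 ran the other way, at 5.85 ± 0.85 at an adjusted p of 1.55e-04 for neurons minus microglia. For astrocytes minus microglia it was at 4.65 ± 0.85 at an adjusted p of 0.0016. It overlapped its cells in neuron sEVs, was at 54.8% of the cell level in astrocyte sEVs and was at 0 in microglia sEVs. Its levels in microglia were low, at 114, 21.7 and 53.8, and its microglia difference went from -5.71 to -3.51 with a pseudocount of 5. Both comparisons share the microglia libraries.

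Between the cells themselves, the alpha cluster set neurons apart from astrocytes. Called higher in neurons were 13 of 14 alpha, 2 of 21 beta, 1 of 21 gamma and 2 of 11 non-clustered genes, where 22.1% of all tested genes were, and no member was lower at an adjusted or unadjusted p under 0.05, where 10.4% of all tested genes were called lower. Median log2 differences, neurons minus astrocytes, were 5.06 for alpha, 1.19 for beta, 0.79 for gamma and 1.26 for non-clustered genes, against 0.25 over all tested genes. The fit of only these 6 libraries called 14 of 14 alpha, 11 of 21 beta, 6 of 21 gamma and 8 of 11 non-clustered genes higher, where 26.3% were, and Pcdh10 and Pcdhgc3 lower, where 12.2% were. Alpha genes at or near 0 in astrocytes, such as Pcdha6, passed the filter of the 9-library and the 6-library fits through the neurons. Every neuron library lay above every astrocyte library in 14 of 14 alpha, 16 of 22 beta, 8 of 21 gamma and 8 of 12 non-clustered genes, where 31.4% of all tested genes did so. Pcdha6, named after its values were seen as the smallest p, had 1769, 3131 and 2462 in neurons, against 0, 0 and 3.47 in astrocytes (log2 difference 10.50 ± 0.67 at an adjusted p of 1.25e-05). Pcdha12 was the alpha gene not called in the fit of all 9 cell libraries, with 5806, 6199.8 and 6686 in neurons, against 622, 745 and 641 in astrocytes, ranges that do not overlap. Pcdhgc4 did not differ detectably between them (-0.27 ± 1.69 at an adjusted p of 0.94).

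Against microglia, neurons were called higher in 65 of 67 genes, where 51.8% of all tested genes were, and astrocytes in 60 of 67, where 43.6% were. Pcdhgb2 was the gene called lower in both: it had 101, 119 and 115 in neurons and 81, 104 and 133 in astrocytes, against 197, 292 and 214 in microglia (adjusted p = 0.0203 for neurons and 0.0152 for astrocytes). The share of all tested genes called lower was 19.9% and 20.8% in these comparisons.

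Between the sEVs of the 3 cell types, the groups are set side by side over all 69 members. Every neuron sEV library lay above every microglia sEV library in 5 of 14 alpha, 9 of 22 beta, 5 of 21 gamma and 10 of 12 non-clustered genes, where 52.0% of all genes tested in sEVs did so. Every astrocyte sEV library lay above every microglia sEV library in 1 alpha, 3 beta, 1 gamma and 6 non-clustered genes, where 31.4% did. The first microglia sEV library lists all members at 0. These shares are over genes that reached 10 in 3 sEV libraries. Only 8 alpha, 14 beta, 8 gamma and 10 non-clustered members did so. Counts over all 69 members thus have a different base from the shares. Every neuron sEV library lay above every astrocyte sEV library in 5 alpha, 1 beta, 1 gamma and 3 non-clustered genes, where 29.4% did. By limma, Pcdhgb6, Pcdhb12, Pcdha7, Pcdha12, Pcdha9 and Pcdh8 were called higher in neuron sEVs than in astrocyte sEVs, where 11.8% of all tested genes were. Members seen mainly in neuron sEVs passed the filter of this fit through them. Of them, Pcdha12 was listed at 0 in every astrocyte sEV library and had 42.7, 156 and 575 in neuron sEVs. When any 1 of the 3 neuron sEV libraries was left out, limma called 0, with 6, 4 and 4 higher at an unadjusted p under 0.05 without the first, the second and the third. Calls over all tested genes fell too, to 2.15%, 2.80% and 2.77% called higher. Pcdh9, Pcdh7, Pcdh17 and Pcdh10 did not differ detectably between neuron sEVs and astrocyte sEVs, at -0.84, -0.13, 0.91 and 0.43 on the log2 scale with SEs of 2.15, 1.97, 1.99 and 0.67.

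Levels were also set per kilobase of the longest coding transcript, which is only a rough scale between genes. Coding transcripts of Pcdh9 run from 354 to 6521 bases, cDNA was primed at the poly(A) end, and reads of shared exons were split between isoforms. On this scale Pcdh9 was the highest in neurons at 4430 normalized counts per kilobase. Pcdhgc4 followed at 1503, Pcdha12 at 1168, Pcdha5 at 1091, Pcdh11x at 1081 and Pcdhb9 at 1051. In neuron sEVs the corresponding levels were 746 for Pcdh9 and 476 for Pcdhgc4, against 48.4 for Pcdha12, 5.51 for Pcdha5, 47.0 for Pcdh11x and 24.1 for Pcdhb9. In astrocyte sEVs Pcdh9 had 1469 per kilobase, against 2318 in astrocytes.

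Genes that act with protocadherins were counted from lists, beside shares of all tested genes of 11.1% higher and 18.9% lower in neuron sEVs, 8.0% higher and 18.6% lower in astrocyte sEVs and 5.08% higher and 21.2% lower in microglia sEVs. Of 18 genes for promoter choice and chromatin, 2 rose and 4 fell in neuron sEVs, 2 rose and 2 fell in astrocyte sEVs and 3 fell in microglia sEVs, with medians of -0.39, -0.44 and -1.01. These counts are near those shares. Rest, a repressor of neuronal genes, had 2126, 2332 and 2830.0 in neuron sEVs, against 368, 294 and 183 in neurons (log2 difference 3.15 ± 0.33 at an adjusted p of 4.10e-06). Smc3, a cohesin subunit, and Mau2, a cohesin loader, fell in neuron sEVs by 2.02 ± 0.39 at an adjusted p of 9.72e-04 and 1.21 ± 0.41 at an adjusted p of 0.0378 on the log2 scale. Of 17 genes for signalling and processing, 2 rose and 7 fell in neuron sEVs, 1 rose and 4 fell in astrocyte sEVs and 1 rose and 4 fell in microglia sEVs, counts near the shares in astrocytes and microglia. Adam10, which sheds the outer part of protocadherins, fell in sEVs of all 3 types, by 2.42 in neurons, 2.49 in astrocytes and 3.37 in microglia on the log2 scale.

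Other genes of the cadherin superfamily give a yardstick. Of 49 such genes 37 were tested, and 3 rose and 17 fell in neuron sEVs, with a median log2 difference of -3.29, between those of the clustered (-5.30) and non-clustered (-2.22) protocadherins. In astrocyte sEVs 2 rose and 8 fell, with a median of -2.11, against -5.50 for clustered and -2.79 for non-clustered protocadherins. In microglia sEVs 8 fell and none rose, with a median of -0.29. The astrocyte and microglia counts are near the shares of all tested genes. These medians are over the genes tested, and differences between the lists were not tested.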

How the data were processed

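RNA of sEVs and of source cells was turned into cDNA with a poly-dT primed low-input kit that does not mark strand and sequenced as tagmented libraries, per the labels' protocols. The submitters' processing notes name Salmon 1.8.0, DESeq2 and the genome build GRCm39. The deposited values are normalized counts per gene made by the authors (handled as a signal that is never negative): between 2.9 and 9.04% of values under 100 in a library lay within 0.001 of a whole number, so reads could not be recovered, and no counting interval or floor is given. All 18 sample columns were used and 0 were left out. Deposited group means were not used, since the microglia sEV mean matched its replicates in 1477 of 18481 genes.

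Genes were taken by symbol. Differences were tested with limma 3.58.1 in R 4.3.3 with an intensity trend on log2(value + 1), over genes that reached 10 in 3 or more of the libraries fitted, with Benjamini-Hochberg adjustment over all genes tested and a threshold of 0.05. One fit held all 18 libraries (19612 genes) for sEVs against cells and for the differences between cell types in that effect. Fits of the 9 cell libraries (18410 genes) and of the 9 sEV libraries (15514 genes) gave the cell type pairs. The script was tested on simulated data. Alternatives were a pseudocount of 5, no filter, quantile normalization, equal totals, each library left out, a replicate block, fits of the 6 libraries compared, and, added after the data were seen, a fit without the 2 sEV libraries with fewest genes.

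Values per library are given for the 4 highest members of each cluster and the 8 highest non-clustered members by the mean of 18 libraries, the C-type isoforms, the called members with the 4 smallest p in each direction, and members called in a difference of effects. Other genes named are marked as such or described by range. The members and lists were chosen with earlier results of these data known. GENCODE vM21 and RefSeq, both on GRCm38, served only for transcript lengths, shared sequence, gene order and promoters; no coordinates were joined between builds. Some genes of the lists are not reported here.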

Additional observations from a re-analysis of the deposited data

Results flagged for a closer look

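Differences between cell types in the effect of sEVs, tested in limma as the difference of 2 differences on the log2 scale, brought out 11 results, the calls with the smallest p in each pair of types. Between neurons and astrocytes these were Pcdha1 at -7.85, Pcdhgb6 at 5.67 and Pcdha4 at -6.07. Between neurons and microglia they were Pcdha1 at -10.65, Pcdhgb1 at -7.35, Pcdh10 at 5.85 and Pcdha2 at -8.84. Between astrocytes and microglia they were Pcdha7 at -6.46, Pcdhgb1 at -5.16, Pcdh10 at 4.65 and Pcdhb13 at -7.30. A negative value means that the level in sEVs relative to cells was lower in the type named first than in the second. Pcdhb13 was listed at 0 in all 3 astrocyte sEV libraries, against 119, 162 and 200 in astrocytes, and at 0 in all 6 microglial libraries. Pcdha1, Pcdha2 and Pcdha7 were also listed at 0 in all 6 microglial libraries, and the size of a difference that involves a group at 0 depends on the pseudocount.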

How the results depend on the processing

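Of 1460 values recomputed for 59 results on single genes, 1355 kept their direction and their side of the threshold, 105 lost their call and 0 reversed. Only results called in the main fit were recomputed. Leaving out a library outside a comparison, the filter, a replicate block and fits of the 6 libraries compared cannot change a log2 difference. For most of these values a reversal was therefore not possible, and the count of 0 says little about direction. The number of protocadherins called changed by over 1.5 times in these cases. Fits of only the 6 libraries compared called 28 in astrocyte sEVs against astrocytes, where the main count was 43, and 41 between neurons and astrocytes, where it was 18. A pseudocount of 5 called 28 in the difference of effects between neurons and microglia, where the main count was 17. Quantile normalization called 41 there, 23 in that between astrocytes and microglia (main count 15), 2 between neuron sEVs and astrocyte sEVs (main count 6) and 10 between neuron sEVs and microglia sEVs (main count 24). Equal totals gave summed levels in neuron sEVs of 6.87% of those in neurons for beta, 13.8% for gamma and 22.0% for non-clustered genes. Causes were not tested.

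Leaving out each library in turn gave 28 to 42 calls in astrocyte sEVs against astrocytes, with 28 without the first astrocyte sEV library. It gave 34 to 49 in neuron sEVs against neurons and 8 to 12 in microglia sEVs against microglia. It gave 2 to 5 in the difference of effects between neurons and astrocytes, with 5 without the third astrocyte sEV library. It gave 0 to 7 between neuron sEVs and astrocyte sEVs, with 0 without any 1 of the neuron sEV libraries, where 3.10 to 4.10% of all genes were called.

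The labels do not say whether same-numbered sEV and cell libraries share a culture. Over 9 same-numbered pairs, deviations from the group means correlated at -0.0396 to 0.0445. These weak correlations cannot show whether the numbers pair the samples. A replicate block called 40 protocadherins in neuron sEVs, 37 in astrocyte sEVs and 9 in microglia sEVs against their cells, 1 in the difference of effects between neurons and astrocytes (Pcdha1, adjusted p = 0.015, with Pcdhgb6 at 0.0519 and Pcdha4 at 0.0896), where the main count was 3, and 17 between neurons and astrocytes.

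With 3 libraries a group and a shared spread, many differences of several log2 units among low genes were not called, and missing calls do not show equal levels. Depth in reads is unknown here. Microglia sEV libraries hold the fewest genes, so absence of a protocadherin there is a statement about these libraries.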
